A study of Mus musculus with 11 samples.

Results

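Effector T cell transcription factors are the regulators outside the helper master factors that guide activated T cells towards effector or tissue-resident fates. A list of 10 such genes was read by symbol from the 35814 gene symbols measured in renal CD4+ T cells: Id2, Id3, Hopx, Runx1, Runx2, Prdm1, Zeb2, Klf6, Bhlhe40 and Nfil3. All 10 were present in the table and passed the filter on low counts in each comparison. They were chosen by their known roles and with the fold changes of these libraries already seen, so that their values are given as a description. The libraries came from kidneys of male C57BL/6 mice, 8 to 12 weeks old, on day 2 after ischemia–reperfusion injury (IRI) with 45 min of clamping of both renal pedicles. Every group, the controls included, carried a Cre recombinase driven by the CD4 promoter. The 3 CD4cre mice served as controls and are labelled WT, the 5 CD4IKK1Δ mice carried floxed IKK1 (the gene Chuk) and are labelled IKK1 knockout, and the 3 CD4NIKΔ mice carried floxed NIK (the gene Map3k14) and are labelled NIK knockout. CD4 is transiently expressed by nearly all developing thymocytes of the αβ lineage, so that this Cre is not restricted to mature CD4+ T cells.

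The 10 factors act at different steps of T cell fate. Id2 and Id3 lack a DNA-binding region and hold E proteins away from DNA, Runx1 and Runx2 bind DNA together with Cbfb, and Prdm1 (Blimp1), Zeb2, Bhlhe40 and Nfil3 mainly repress their targets. Hopx is a small homeodomain protein that does not bind DNA itself, and Klf6 is a zinc-finger factor that responds quickly to many stimuli. Several of them are known from tissue-resident lymphocytes, among them Prdm1, Id2 and Bhlhe40, and both IKK1 and NIK belong to the non-canonical NFκB pathway.

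The libraries differed in how much T cell transcript they held, and this touches every comparison. Library totals ran from 15751632 to 25737046 estimated counts, so that 3 counts, taken as the detection floor, amounted to 0.115 to 0.212 CPM (counts after scaling to equal library size, with edgeR's TMM factors in these and all values below). Such floors cover counting error only. Transcripts of the T cell receptor constant regions (the sum of Trac, Trbc1 and Trbc2) came to 35820, 22741 and 12558 counts in CD4cre replicates 1 to 3, 41, 868, 11413, 5277 and 5644 counts in CD4IKK1Δ replicates 1 to 5, and 60124, 111648 and 90324 counts in CD4NIKΔ replicates 1 to 3. The sum of 16 Pan T markers ran from 219 to 1567 CPM in libraries labelled CD4IKK1Δ, from 1759 to 3171 CPM in CD4cre libraries and from 8274 to 12440 CPM in libraries labelled CD4NIKΔ. A set of 12 neuronal markers, which the sorted cells should lack, ran in the opposite order: 3707 to 4320, 2879 to 3586 and 981 to 2011 CPM. Among the 16 Pan T markers Thy1 alone had a positive log2 fold change in CD4IKK1Δ against CD4cre (0.35). Its mean was 175 CPM in CD4IKK1Δ and 137 CPM in CD4cre libraries. The Pan T sums of CD4IKK1Δ libraries, 219 CPM at the lowest, therefore include a marker that was not lower there. They can understate how far the other Pan T markers fell. For 12 myeloid markers the sums were 106 to 284, 453 to 1929 and 662 to 993 CPM in CD4IKK1Δ, CD4cre and CD4NIKΔ libraries. The highest was in CD4cre replicate 1, beside 453 and 877 CPM in CD4cre replicates 2 and 3. Markers of other blood cells also differed: in the same order of groups the sums were 2.33 to 166, 124 to 216 and 858 to 1340 CPM for 8 CD8 and NK cell markers, 4.14 to 25.6, 67.5 to 140.05 and 193 to 663 CPM for 6 B cell markers, and 532 to 1612, 2078 to 2680 and 1177 to 8183 CPM for 6 erythroid markers. The sums of 12 kidney tubule markers were 5.50 to 23.7, 19.9 to 95.9 and 22.02 to 128 CPM. In CD4IKK1Δ against CD4NIKΔ 6 of 7 tested CD8 and NK cell markers, 2 of 4 B cell, 4 of 5 erythroid, 6 of 10 myeloid and 3 of 11 kidney tubule markers were called lower (18.5% of all genes). In CD4IKK1Δ against CD4cre none of the kidney tubule markers was called, where no gene was, and the 9 tested had negative fold changes (median −1.69). So had 9 of 10 myeloid (median −2.59), 6 of 6 CD8 and NK cell (−2.29), 2 of 3 B cell (−0.90) and 4 of 5 erythroid markers (−1.19). In CD4NIKΔ against CD4cre 3 of 7 CD8 and NK cell markers were called higher (10.4% of all genes). The part of these markers in the values of the 10 factors was not tested. Of the defining markers Cd4, Cd3e, Trac, Trbc1 and Trbc2, CD4IKK1Δ replicate 1 had 2 at or under 3 counts, and the other libraries had none. The targeted genes did not separate the groups as labelled: Chuk had 325 to 683 counts in CD4cre libraries and 258 to 588 in those labelled CD4IKK1Δ, and Map3k14 had 294 to 506 counts in CD4cre libraries and 232 to 626 in those labelled CD4NIKΔ. Map3k14 was lowest in the libraries labelled CD4IKK1Δ, at 29, 94, 109, 186 and 170 counts in replicates 1 to 5, below every library of the other groups. Counts per gene cannot show whether the floxed exons were removed. In bulk samples of this kind, fewer cells of a type and less RNA per cell cannot be told apart.

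The question put to the first comparison was which of the factors differed when IKK1 was targeted. Libraries labelled CD4IKK1Δ had lower mean levels than CD4cre libraries for 9 of the 10 factors, and Zeb2 was the exception. The log2 fold changes had a median of −1.35 over the 10 factors beside 0.02 over the 15653 genes tested. With edgeR's quasi-likelihood test, a call required more than 2-fold and an FDR under 0.05, and no factor and no gene (0%) reached them. The smallest FDR of any gene was 0.0543, and an unadjusted p under 0.05 was reached by 7 of the 10 factors and by 16.6% of all genes. DESeq2 on the same libraries called 553 genes, 503 of them lower. The latter are 2.12% of the 23700 genes with any count, a wider set than the 15653 that edgeR tested. Id3 and Nfil3 were the members among the genes DESeq2 called, both lower. Every CD4IKK1Δ library was lower than every CD4cre library for Id2, Id3, Runx1, Klf6 and Nfil3 (8.44% of all genes), and every CD4IKK1Δ library was higher for Zeb2 (6.02% of all genes). When the libraries were scaled to their Pan T counts in place of TMM, which moved the median of all genes to 2.39, the direction turned for 6 factors (Id2, Id3, Hopx, Runx2, Klf6 and Bhlhe40). The Pan T markers include Thy1, and its part in this scaling was not tested in any comparison.

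The same question for NIK gave differences of the opposite sign. Libraries labelled CD4NIKΔ had higher levels than the same 3 CD4cre libraries for 9 of the 10 factors, again with Zeb2 as the exception, with a median log2 fold change of 1.32 beside −0.02 over 15209 genes. Id2, Hopx and Runx2 passed the threshold as higher, which is 3 of 10 where 10.4% of all genes were called higher, 6.99% lower and 17.4% in either direction. An unadjusted p under 0.05 was reached by 6 of the 10 factors and by 36.9% of all genes. Every CD4NIKΔ library was higher than every CD4cre library for Id2, Hopx, Runx2, Klf6 and Bhlhe40 (22.9% of all genes) and lower for Zeb2 (22.4% of all genes). Scaled to Pan T counts, which moved the median of all genes to −2.12, 8 of the factors turned direction, leaving Runx2 at 0.04 and Zeb2 at −2.66. Under that scaling edgeR called 4 factors, all lower (Id3 at −1.35, FDR 0.00651, Runx1 at −1.25, FDR 0.0105, Zeb2, FDR 0.000618, and Nfil3 at −1.37, FDR 0.0149), and none of the 3 called under TMM, where 67.3% of all genes were called lower. With a score of the Pan T markers or of the neuronal markers as a covariate of the edgeR fit none of the 10 factors was called, and neither was any other gene (0%). The log2 fold changes were then 2.45 and 2.35 for Runx2 with the Pan T and the neuronal covariate (2.10 without), 0.95 and 1.501 for Hopx (2.11 without) and 0.11 and 0.85 for Id2 (1.47 without). The comparisons with CD4cre share their control libraries, so that their values are set side by side here and their opposite signs are not independent of each other.

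Between libraries labelled CD4IKK1Δ and CD4NIKΔ, all 10 factors passed the threshold, 9 of them lower in CD4IKK1Δ and Zeb2 higher, where 33.3% of the 16546 genes tested were called, 18.5% as lower and 14.8% as higher, and where 49.5% of all genes had an unadjusted p under 0.05. The median log2 fold change of the 10 factors was −2.71 beside 0.06 over all genes. For the 9 lower factors no CD4IKK1Δ library reached the lowest CD4NIKΔ library (24.4% of all genes), and for Zeb2 none of them overlapped in the other direction (20.7% of all genes). Scaled to Pan T counts, which moved the median of all genes to 4.54, 8 of the 9 lower factors turned direction and Prdm1 stayed lower at −0.53. With the Pan T score as a covariate 2 of the 10 were called (Id2 and Hopx, both lower), where 2.35% of all genes were called lower, and with the neuronal score no factor and no gene (0%).

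**Figure D1:**
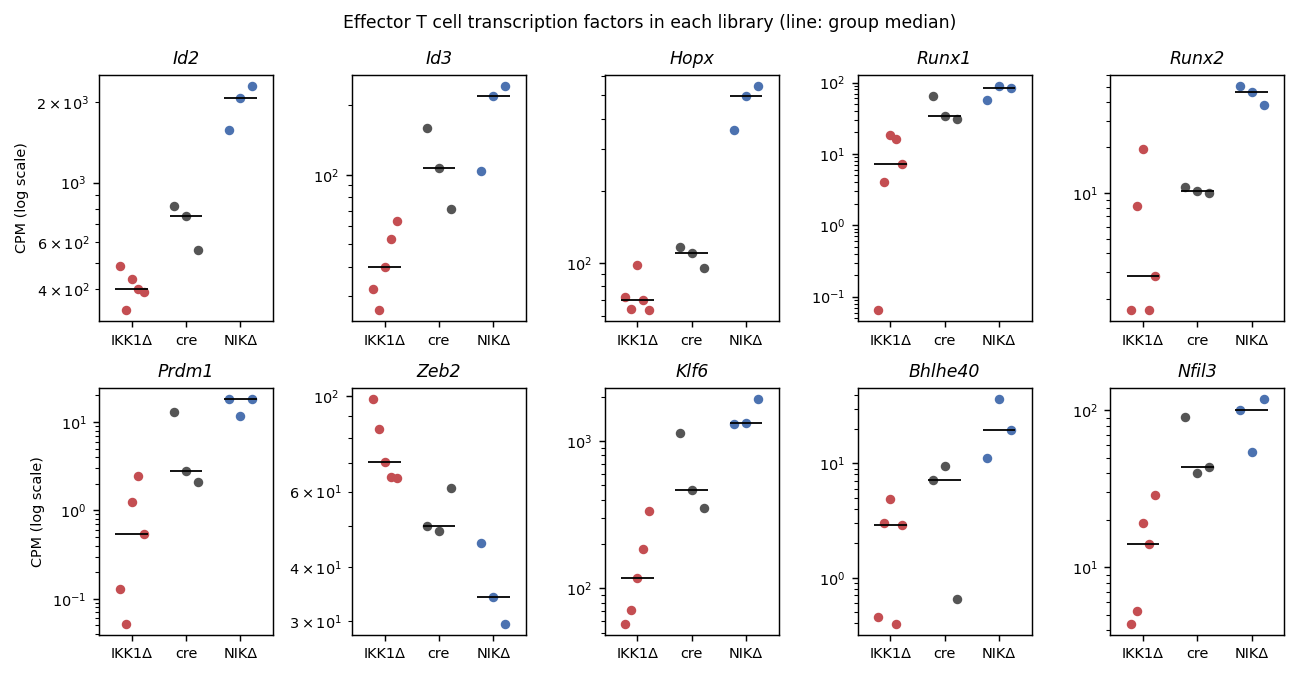
CPM of each of the 10 factors (log scale, a separate range for each panel) in the 5 CD4IKK1Δ, 3 CD4cre and 3 CD4NIKΔ libraries, 1 point per library, with a line at the group median. Zeb2 is the factor whose CD4IKK1Δ points lie above the others; Id2 ranges from 334 CPM in a CD4IKK1Δ library to 2299 CPM in a CD4NIKΔ library.

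**Figure D2:**
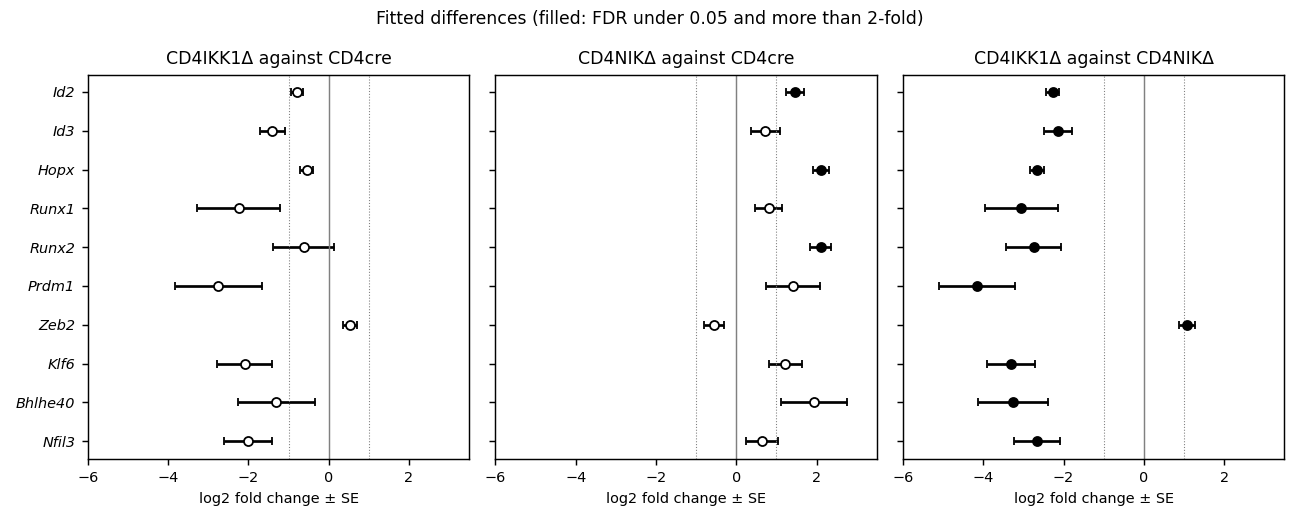
Fitted log2 fold changes with standard errors for the 10 factors in the 3 comparisons from edgeR's quasi-likelihood fit (TMM), where filled points are more than 2-fold with an FDR under 0.05 and dotted lines mark 2-fold. No point is filled against CD4cre for CD4IKK1Δ, 3 are filled for CD4NIKΔ (Id2, Hopx and Runx2) and all 10 are filled between CD4IKK1Δ and CD4NIKΔ. With libraries scaled to Pan T counts 6, 8 and 8 of the 10 directions turn. That scaling moves the median of all genes to 2.39, −2.12 and 4.54.

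Promoters were looked at for the motifs that the factors themselves are known to bind or to guard. RefSeq start sites on GRCm38.p6 gave 14 promoters for 9 of the factors, each from 250 bases before to 50 bases after the start, while Bhlhe40 was named only. The letters CACGTG, the E-box that Bhlhe40 and its relatives recognise, stood in 3 of these 14 promoters and in 2349 of 32851 promoters of all genes (7.15%), on both strands since the word is its own reverse complement. Every CACGTG is also a match to the broader E-box CANNTG, the E protein site, which stood in 8 of the 14 and in 72.3% of all promoters. The NFκB site (the kappaB consensus, either strand) stood in none of the 14 and in 4.51% of all promoters, and no match says only that these letters are not in this window. The 250 bases before the start are shown for the 3 promoters with CACGTG in capitals, at 86 bases before the start in Hopx (chr5:77095268-77095517, minus strand), 43 before in Klf6 (chr13:5861239-5861488, plus strand) and 71 before in Runx1 (chr16:92826075-92826324, minus strand).
Hopx: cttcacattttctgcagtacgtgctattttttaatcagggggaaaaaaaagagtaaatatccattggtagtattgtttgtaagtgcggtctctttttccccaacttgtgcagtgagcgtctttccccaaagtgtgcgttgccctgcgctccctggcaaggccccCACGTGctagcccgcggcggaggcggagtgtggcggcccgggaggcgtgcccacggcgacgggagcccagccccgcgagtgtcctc
Klf6: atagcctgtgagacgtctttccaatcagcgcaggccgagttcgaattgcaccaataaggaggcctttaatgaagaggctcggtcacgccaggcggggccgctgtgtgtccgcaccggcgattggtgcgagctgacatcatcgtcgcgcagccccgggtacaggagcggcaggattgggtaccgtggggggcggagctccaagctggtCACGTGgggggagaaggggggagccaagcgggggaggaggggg
Runx1: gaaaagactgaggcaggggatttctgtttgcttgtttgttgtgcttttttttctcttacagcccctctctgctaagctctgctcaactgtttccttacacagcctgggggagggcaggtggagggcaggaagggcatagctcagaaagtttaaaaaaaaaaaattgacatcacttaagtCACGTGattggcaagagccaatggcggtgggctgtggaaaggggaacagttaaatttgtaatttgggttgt
The Runx site TGTGGT (either strand) stood in 16.8% of all promoters and in 2 of the 14, which were those of Runx1 and Runx2 themselves. Both held it as a pair on the reverse strand, read here as ACCACA, with starts 8 bases apart just downstream of the start site, at positions 28 and 36 in Runx1 (chr16:92826027-92826056, minus strand) and 23 and 31 in Runx2 (chr17:44814580-44814609, minus strand), and the capitals mark the pair. Runx2 held another match on the same strand, 80 bases before the start.
Runx1: ctcataaacaACCACAgaACCACAagttgg
Runx2: aaacaACCACAgaACCACAagtgcggtgca
Such a pair stood in 7 of the 32851 promoters (0.0213%), a pattern that was looked for only after these matches were seen. A match is a description of letters and not a site of binding.

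Id2 and Id3 are the inhibitors of E proteins, Id2 being associated with effector and Id3 with naive and memory-like T cells. Id2 (chr12:25143798-25147282 on GRCm39, minus strand) had 817, 749 and 561 CPM in CD4cre replicates 1 to 3, 487, 334, 437, 401 and 392 CPM in CD4IKK1Δ replicates 1 to 5, and 1573, 2063 and 2299 CPM in CD4NIKΔ replicates 1 to 3. The 3 groups did not overlap, and the libraries labelled CD4NIKΔ were the highest. The group means were 709 ± 132 CPM (SD, n = 3), 410.4 ± 56.6 CPM (SD, n = 5) and 1978 ± 370.5 CPM (SD, n = 3). Id2 rose by a log2 fold change of 1.47 in CD4NIKΔ against CD4cre (SE 0.23, FDR 0.00716, edgeR's quasi-likelihood test), a direction that turned to −0.62 with scaling to Pan T counts. Against CD4cre the CD4IKK1Δ value was −0.79 (SE 0.14, FDR 0.0668), which missed the threshold, and against CD4NIKΔ it was −2.27 (SE 0.16, FDR 1.34e-05). Id3 (chr4:135870808-135873066, plus strand) had 159.8, 108 and 70.9 CPM in CD4cre, 31.9, 25.96, 39.8, 52.8 and 63.1 CPM in CD4IKK1Δ and 104, 219.8 and 243 CPM in CD4NIKΔ libraries. The CD4IKK1Δ libraries lay below all others, whereas CD4cre and CD4NIKΔ overlapped. The log2 fold change of Id3 was −1.40 for CD4IKK1Δ against CD4cre (SE 0.32, FDR 0.0909) and 0.73 for CD4NIKΔ against CD4cre (SE 0.37, FDR 0.190), neither past the threshold. Without CD4NIKΔ replicate 1, its lowest library there, Id3 was called against CD4cre (1.04, FDR 0.0440). Id2 and Id3 thus had fold changes of the same sign in each comparison under TMM scaling.

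Of the E proteins that Id factors hold back and the other Id genes (Tcf3, Tcf4, Tcf12, Id1 and Id4), none was called in CD4IKK1Δ against CD4cre, 1 of 5 was called lower in CD4NIKΔ against CD4cre (6.99% of all genes) and 2 of 5 were called higher in CD4IKK1Δ against CD4NIKΔ (14.8% of all genes). The E protein gene Tcf4, which neurons also express, had 183 ± 12.3 CPM (SD, n = 3) in CD4cre, 215 ± 21.7 CPM (SD, n = 5) in CD4IKK1Δ and 72.3 ± 29.3 CPM (SD, n = 3) in CD4NIKΔ libraries, with a log2 fold change of −1.35 for CD4NIKΔ against CD4cre (SE 0.30, FDR 0.0216). Id4 had 51.0, 64.3 and 26.6 CPM in the same order, the other gene called between CD4IKK1Δ and CD4NIKΔ (1.27, SE 0.34, FDR 0.00936). The neuronal markers ran in the same order of groups as Tcf4 and Id4, and their part in these values was not tested.

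Hopx, which is known from long-lived Th1 effector memory cells, had the smallest FDR of the 10 factors in CD4NIKΔ against CD4cre. Its levels (chr5:77234831-77263022, minus strand) were 117, 109.8 and 95.2 CPM in CD4cre, 71.99, 64.5, 98.1, 70.1 and 63.6 CPM in CD4IKK1Δ and 359.7, 496 and 548 CPM in CD4NIKΔ libraries. The CD4cre and CD4IKK1Δ libraries overlapped through CD4IKK1Δ replicate 3, and the lowest CD4NIKΔ library was above all of them. Hopx rose in CD4NIKΔ against CD4cre by 2.11 on the log2 scale (SE 0.21, FDR 0.00230, edgeR's quasi-likelihood test), and scaled to Pan T counts the difference was −0.01. In CD4IKK1Δ the log2 fold change was −0.54 against CD4cre (SE 0.16, FDR 0.154) and −2.67 against CD4NIKΔ (SE 0.18, FDR 9.45e-06).

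Runx1 and Runx2 are the DNA-binding subunits of core-binding factor, Runx1 being needed throughout the T cell lineage and Runx2 being associated with effector and memory T cells. Runx1 (chr16:92398354-92623037, minus strand) had 65.6, 33.8 and 30.9 CPM in CD4cre libraries and 56.8, 90.1 and 82.6 CPM in CD4NIKΔ libraries. In CD4IKK1Δ replicate 1 it had a single count, which is under the floor, and replicates 2 to 5 had 4.08, 18.2, 16.3 and 7.16 CPM. All CD4IKK1Δ libraries were below the others, and CD4cre and CD4NIKΔ overlapped through CD4cre replicate 1. The log2 fold change was −2.24 for CD4IKK1Δ against CD4cre (SE 1.03, FDR 0.330), 0.80 for CD4NIKΔ against CD4cre (SE 0.33, FDR 0.112) and −3.06 for CD4IKK1Δ against CD4NIKΔ (SE 0.91, FDR 0.0214). The last of these lost its call without CD4NIKΔ replicate 2 (FDR 0.0625) and without CD4NIKΔ replicate 3 (FDR 0.0651). It was −2.45 without both CD4IKK1Δ libraries of fewest T cell receptor counts. Without CD4cre replicate 1, its highest control library, Runx1 was called higher in CD4NIKΔ (1.22, FDR 0.0315).

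Runx2 (chr17:44806874-45125684, minus strand) had 11.0, 10.4 and 9.98 CPM in CD4cre, 1.68, 8.17, 19.4, 1.69 and 2.84 CPM in CD4IKK1Δ and 51.0, 46.8 and 38.0 CPM in CD4NIKΔ libraries. The CD4cre libraries were close to each other, the CD4IKK1Δ libraries spread on both sides of them with replicate 3 the highest, and all CD4NIKΔ libraries lay above. Runx2 rose by 2.10 on the log2 scale in CD4NIKΔ against CD4cre (SE 0.26, FDR 0.00348, edgeR's quasi-likelihood test), a call that was lost when all 11 libraries shared the fit (2.12, FDR 0.0908). With scaling to Pan T counts this difference was 0.04. Against CD4cre the CD4IKK1Δ value was −0.63 (SE 0.76, FDR 0.766), and against CD4NIKΔ it was −2.74 (SE 0.69, FDR 0.00720). Without CD4IKK1Δ replicate 3 these values were −1.54 and −3.65.

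Among the partners of the Runx factors (Runx3, Cbfb, Runx1t1, Cbfa2t2 and Cbfa2t3), 0 of 5 were called in CD4IKK1Δ against CD4cre and 1 was called higher in CD4NIKΔ against CD4cre (10.4% of all genes). This was Cbfb, the non-DNA-binding subunit, at 115 ± 34.7 CPM (SD, n = 3) in CD4NIKΔ and 21.3 ± 6.85 CPM (SD, n = 3) in CD4cre libraries (log2 fold change 2.42, SE 0.33, FDR 0.00483). Between CD4IKK1Δ and CD4NIKΔ 2 were called lower and 2 higher, beside 18.5% and 14.8% of all genes. Cbfb was 16.1 ± 8.28 CPM (SD, n = 5) in CD4IKK1Δ libraries, and Cbfa2t3, a corepressor, was higher there, at 36.5 ± 5.02 CPM against 10.5 ± 4.45 CPM in CD4NIKΔ (log2 fold change 1.79, SE 0.28, FDR 0.000393).

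Prdm1 encodes Blimp1, a repressor that marks terminal effector T cells and plasma cells. By its mean it was the least abundant factor per length of transcript in every group, although its libraries overlapped those of Bhlhe40 in each. Prdm1 (chr10:44313171-44404497, minus strand) had 13.0, 2.77 and 2.11 CPM in CD4cre libraries and 18.1, 11.7 and 18.2 CPM in CD4NIKΔ libraries. In CD4IKK1Δ replicates 1 and 2 it had 2 counts and 1 count, both under the floor, and replicates 3 to 5 had 1.24, 2.44 and 0.541 CPM. CD4cre replicate 1 was the only control library that reached the CD4NIKΔ range, and the CD4IKK1Δ and CD4cre libraries overlapped. The log2 fold change was −2.75 for CD4IKK1Δ against CD4cre (SE 1.08, FDR 0.247), 1.42 for CD4NIKΔ against CD4cre (SE 0.68, FDR 0.167) and −4.17 for CD4IKK1Δ against CD4NIKΔ (SE 0.95, FDR 0.00383), and values fitted to counts this low depend on the prior count. Leaving out CD4cre replicate 1 moved the CD4NIKΔ value to 2.70 (FDR 0.0146), which was then called, and the CD4IKK1Δ value from −2.75 to −1.46 (FDR 0.776). Without CD4IKK1Δ replicate 4 the CD4IKK1Δ values were −3.58 against CD4cre and −5.002 against CD4NIKΔ, and without both CD4IKK1Δ libraries of fewest receptor counts they were −2.08 and −3.50.

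Klf6 is an immediate-early zinc-finger factor that many stimuli induce. It had 1139, 466 and 349.95 CPM in CD4cre (chr13:5911481-5920393, plus strand), 57.6, 70.7, 117, 186 and 337 CPM in CD4IKK1Δ and 1304.5, 1341 and 1935 CPM in CD4NIKΔ libraries. The groups did not overlap, although CD4IKK1Δ replicate 5 came close to CD4cre replicate 3 and CD4cre replicate 1 close to the CD4NIKΔ libraries. Its log2 fold change was −2.09 in CD4IKK1Δ against CD4cre (SE 0.68, FDR 0.216) and 1.22 in CD4NIKΔ against CD4cre (SE 0.42, FDR 0.0679), neither of which passed in edgeR's quasi-likelihood test. DESeq2 called the latter (1.25, FDR 0.0127, with 9.47% of the 23365 genes with any count called higher), and so did edgeR without CD4cre replicate 1 (1.89, FDR 0.00936). Leaving out that control library moved the CD4IKK1Δ value from −2.09 to −1.40 (FDR 0.597). Between CD4IKK1Δ and CD4NIKΔ the log2 fold change was −3.31 (SE 0.60, FDR 0.00178), and it turned to 0.80 with scaling to Pan T counts.

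Of 7 other Krüppel-like factors, none was called in CD4IKK1Δ against CD4cre, and 1 higher and 1 lower in CD4NIKΔ against CD4cre, beside 10.4% and 6.99% of all genes. Klf3 was the higher one, at 271 ± 43.9 CPM against 119 ± 35.8 CPM (SD, n = 3 each, log2 fold change 1.18, SE 0.25, FDR 0.0179). Klf9, a factor induced by glucocorticoid and thyroid hormone and strongly expressed in brain, was the lower one, at 146 ± 54.8 CPM against 313 ± 26.9 CPM (log2 fold change −1.11, SE 0.27, FDR 0.0276). Between CD4IKK1Δ and CD4NIKΔ 2 of the 7 were called lower and Klf9 higher (1.31, SE 0.20, FDR 0.000367), beside 18.5% and 14.8% of all genes.

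Bhlhe40 and Nfil3 are basic helix-loop-helix and basic leucine zipper repressors, both tied to the circadian clock, and Bhlhe40 is needed for normal cytokine production by helper T cells. Bhlhe40 (chr6:108636626-108644502, plus strand) had 7.15, 9.44 and 0.652 CPM in CD4cre, 0.452, 3.04, 4.86, 0.398 and 2.88 CPM in CD4IKK1Δ and 11.1, 36.5 and 19.5 CPM in CD4NIKΔ libraries. CD4cre replicate 3 had 13 counts where the other controls had 186 and 194, so that the controls were spread about as widely as the CD4IKK1Δ libraries, and all CD4NIKΔ libraries were above both. The log2 fold change was −1.30 for CD4IKK1Δ against CD4cre (SE 0.96, FDR 0.557), 1.94 for CD4NIKΔ against CD4cre (SE 0.82, FDR 0.124) and −3.26 for CD4IKK1Δ against CD4NIKΔ (SE 0.88, FDR 0.0102). Without CD4NIKΔ replicate 2, the highest library, the last call was lost (−2.72, FDR 0.0514), and without CD4cre replicate 2 the CD4NIKΔ value against CD4cre was 2.53. DESeq2 called Bhlhe40 higher in CD4NIKΔ against CD4cre (1.97, FDR 0.0331). It did so for 2213 of the 23365 genes with any count (9.47%), a wider set than the 15209 that edgeR tested. Nfil3 (chr13:53121245-53137010, minus strand) had 90.4, 40.1 and 43.6 CPM in CD4cre, 4.39, 5.29, 19.1, 14.2 and 28.9 CPM in CD4IKK1Δ and 101, 54.4 and 118 CPM in CD4NIKΔ libraries. The CD4IKK1Δ libraries were below all others, and CD4cre replicate 1 lay within the CD4NIKΔ range. The log2 fold change of Nfil3 was −2.01 for CD4IKK1Δ against CD4cre (SE 0.59, FDR 0.159), 0.64 for CD4NIKΔ against CD4cre (SE 0.39, FDR 0.267) and −2.66 for CD4IKK1Δ against CD4NIKΔ (SE 0.57, FDR 0.00337).

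Zeb2, a repressor that drives terminal effector differentiation and is also expressed in neurons and glia, had the reverse order of groups. Its levels (chr2:44873644-45007464, minus strand) were 49.96, 48.5 and 61.1 CPM in CD4cre, 98.6, 84.2, 70.3, 65.1 and 64.7 CPM in CD4IKK1Δ and 45.5, 34.2 and 29.6 CPM in CD4NIKΔ libraries. No group overlapped another, the CD4IKK1Δ libraries were the highest, and their 2 highest values were in replicates 1 and 2, the libraries with the fewest T cell receptor counts. The log2 fold change was 0.52 for CD4IKK1Δ against CD4cre (SE 0.18, FDR 0.185), −0.56 for CD4NIKΔ against CD4cre (SE 0.25, FDR 0.141) and 1.07 for CD4IKK1Δ against CD4NIKΔ (SE 0.21, FDR 0.00142). The last value sat just past 2-fold and fell under it without CD4IKK1Δ replicate 1 (0.96), without CD4NIKΔ replicate 3 (0.94) and without both libraries of fewest T cell receptor counts (0.87). It was also under 2-fold with DESeq2 (0.98, FDR 0.000487), with RLE factors in place of TMM (0.98) and with the Pan T score as a covariate (0.48, FDR 0.342). The neuronal markers ran in the same order as Zeb2, all 12 of them higher in CD4IKK1Δ than in CD4NIKΔ libraries and 10 of them called, and 5 of 10 glial markers were called higher as well, beside 14.8% of all genes. With the neuronal score as a covariate the value was 0.32 (FDR 0.839).

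In the libraries with the least T cell receptor transcript, the 10 factors stood at different shares of their CD4cre means. In CD4IKK1Δ replicate 1 the receptor transcripts were at 0.255% of their mean CPM in CD4cre libraries. There Id2 was still at 68.7% and Hopx at 67.1% of the CD4cre mean, and Zeb2 at 185%. Id3 was at 28.3% and Runx2 at 16.1%, while Klf6, Bhlhe40 and Nfil3 were at 8.84%, 7.87% and 7.57%, and Runx1 and Prdm1 were under the floor of 3 counts. In CD4IKK1Δ replicate 2, with receptor transcripts at 4.38%, Hopx was at 60.1%, Id2 at 47.2%, Id3 at 23.0%, Klf6 at 10.9%, Runx1 at 9.40% and Nfil3 at 9.11%. Runx2 and Bhlhe40 stood higher in this library, at 78.3% and 52.8%, on 156 and 58 counts. Transcripts of Id2, Hopx and Zeb2 were thus present at a similar order of magnitude where receptor transcripts were nearly absent, and which cells they came from was not tested.

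**Figure D3:**
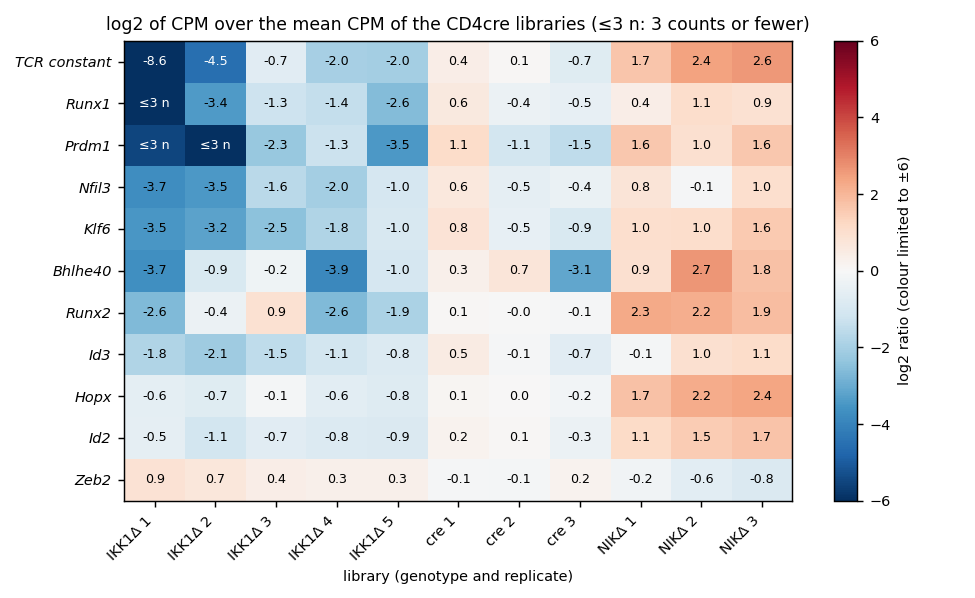
Log2 ratio of each library's CPM to the mean CPM of the 3 CD4cre libraries for T cell receptor constant-region transcripts (top row) and the 10 factors, with colour limited to 6 in either direction and cells of 3 counts or fewer marked. In CD4IKK1Δ replicate 1 the receptor row is at −8.61 while Id2 is at −0.54, Hopx at −0.58 and Zeb2 at 0.89.

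Set against the receptor transcripts of the same library, the order of CD4cre and CD4NIKΔ libraries turned for some factors and not for others. Id2 had between 593 and 891 counts per 1000 receptor counts in CD4cre libraries and between 361 and 474 in CD4NIKΔ libraries, so that here the CD4NIKΔ libraries were the lower ones. Runx1 likewise had between 30.5 and 49.1 in CD4cre and between 13.0 and 17.1 in CD4NIKΔ libraries. Hopx had between 84.9 and 151 in CD4cre and between 86.0 and 108 in CD4NIKΔ libraries, and Runx2 between 7.96 and 15.8 and between 5.96 and 15.4, and for both the groups overlapped, as they did for Prdm1 and Bhlhe40. Zeb2 kept its order, with between 36.3 and 96.99 in CD4cre and between 4.64 and 13.7 in CD4NIKΔ libraries, and Id3, Klf6 and Nfil3 were lower in all CD4NIKΔ libraries than in any CD4cre library. These ratios were not tested, and the share of all genes lower on this scale was not computed. Receptor transcripts in CD4NIKΔ libraries were at 320% to 614% of the CD4cre mean, so that lower ratios cannot be read as a trait of the factors. Under the similar scaling to Pan T counts 67.3% of all genes were called lower. In libraries labelled CD4IKK1Δ the ratio of Id2 ran from 677 to 183927 and was highest where receptor counts were lowest. Runx1 was lowest there, at 24.4 on a single count.

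**Figure D4:**
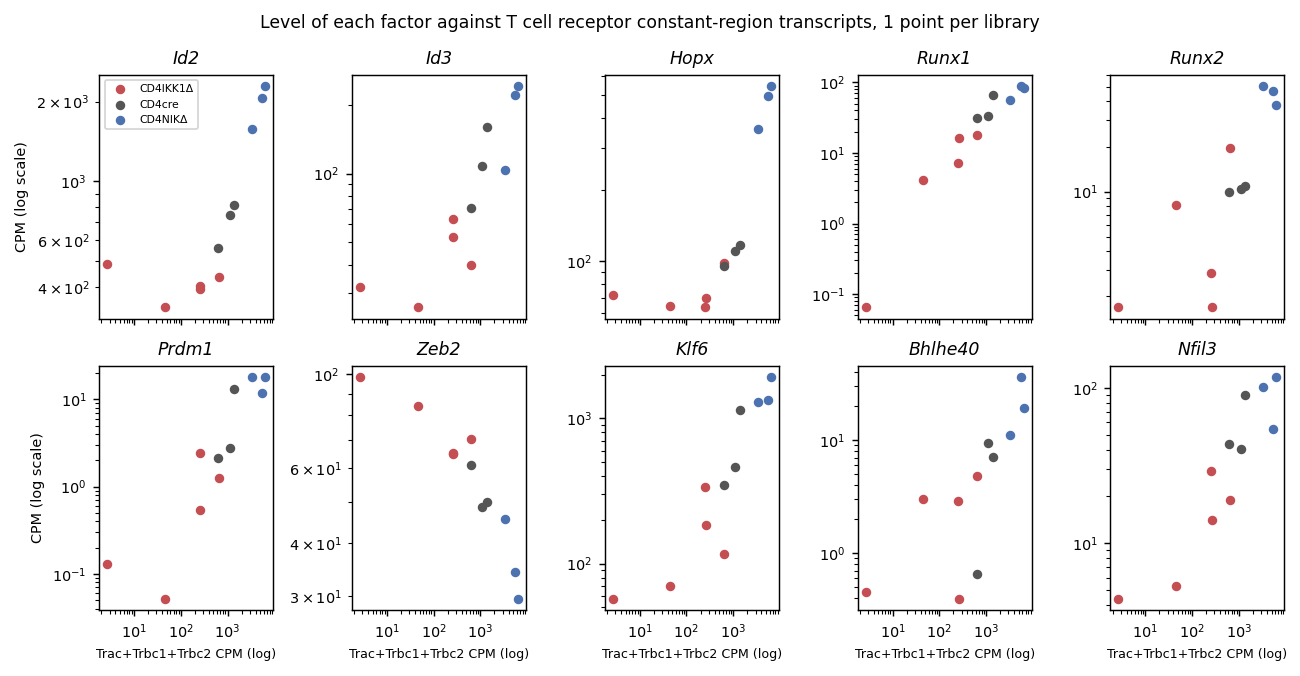
CPM of each factor against the summed CPM of Trac, Trbc1 and Trbc2 (both axes log scale), 1 point per library, coloured by group. Runx1 falls from 90.1 CPM to a single count across the range of receptor transcripts, Id2 and Hopx level off in the 5 CD4IKK1Δ libraries, and Zeb2 runs downwards from 98.6 to 29.6 CPM as receptor transcripts increase.

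Per length of the canonical transcript, which allows levels to be compared between genes, Id2 was the most abundant of the factors in each group, at 288 CPM per kb in CD4cre, 167 in CD4IKK1Δ and 803 in CD4NIKΔ libraries. In CD4cre libraries Klf6 followed at 154 CPM per kb, then Id3 at 88.2, Hopx at 82.6, Nfil3 at 25.4, Zeb2 at 8.82, Runx1 at 7.41, Runx2 at 1.61, Bhlhe40 at 1.22 and Prdm1 at 1.14. Of these neighbours Klf6 overlapped Id2 and Id3, Id3 overlapped Hopx, Zeb2 overlapped Runx1, and Runx2, Bhlhe40 and Prdm1 overlapped one another in the range of their libraries. In CD4IKK1Δ libraries Hopx (56.7 CPM per kb) stood above Klf6 (36.3), and Zeb2 (12.7) above Nfil3 (6.29) by their means. Both ranges overlapped, and in CD4IKK1Δ replicate 5 both orders were reversed, with Klf6 at 79.7 and Hopx at 48.9 and with Nfil3 at 12.7 and Zeb2 at 10.7 CPM per kb. In CD4NIKΔ libraries Klf6 (361) and Hopx (360.04) were level.

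Genes whose profiles over the 11 libraries were nearest to each factor were ranked by the root mean square difference of their centred log2 CPM among 15234 genes. Id2 had Rock1 (0.17), Mbnl1 (0.17) and Rnaset2b (0.19) as its nearest genes, beside its own spread of 0.96 over the libraries. Hopx was the nearest factor to Id2 (0.28), and its nearest genes were Mbnl1 (0.24), Rsu1 (0.26) and Arhgef3 (0.26). Id3 was nearest to Satb1 (0.20), the chromatin organizer of thymocytes, then to Rhoa (0.28) and Eif1 (0.29). Klf6 was nearest to Trp53inp1 (0.26), Btg2 (0.33) and Ctss (0.37), and Nfil3, its nearest factor (0.49), to Rab20 (0.42), Itprip (0.43) and Pik3r5 (0.44). Runx1 was nearest to Arhgap45 (0.40), Kcnn4 (0.46) and Sh2d2a (0.49), beside an own spread of 2.52. Runx2 had Plekho2 (0.35), S100a6 (0.60) and Aebp2 (0.63), and Prdm1 had Tagap (0.45), Igfbp4 (0.46) and Shc1 (0.63). Bhlhe40 had no close profile, its nearest being Mfsd1 (0.68), Zfp109 (0.77) and H4c18 (0.78). Zeb2 was nearest to Mrpl51 (0.11), Ndufb3 (0.11) and Znhit3 (0.11), genes of mitochondrial translation and respiration and a zinc-finger protein, and no other factor was near it (Id2 at 1.42, beside an own spread of 0.50). These distances describe 11 libraries whose T cell content and depth differ, and genes compared over them share those differences.

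Other factors and targets of the same fate decisions were read from lists of related genes, drawn up like the 10 factors with earlier results known. Tbx21, the Th1 master factor, had 37.4 ± 12.2 CPM (SD, n = 3) in CD4cre, 7.68 ± 5.66 CPM (SD, n = 5) in CD4IKK1Δ and 196 ± 49.0 CPM (SD, n = 3) in CD4NIKΔ libraries, and Rora had 67.0, 28.4 and 228 CPM in the same order. Of the residency genes, 5 of 10 were called higher in CD4NIKΔ against CD4cre (median log2 fold change 2.49) and 10 of 10 lower in CD4IKK1Δ against CD4NIKΔ (median −3.56), beside 10.4% and 18.5% of all genes. Cxcr6, a chemokine receptor of tissue-resident T cells, had a log2 fold change of 3.71 in CD4NIKΔ against CD4cre (SE 0.53, FDR 0.00550), and P2rx7, an ATP-gated channel of resident cells, of 2.55 (SE 0.42, FDR 0.00895).

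The naive and memory factors had 5 of 12 called higher in CD4NIKΔ against CD4cre (median 1.33, beside 10.4% of all genes) and 9 of 12 lower in CD4IKK1Δ against CD4NIKΔ (median −2.13, beside 18.5%). Ets1 (2.61, SE 0.35, FDR 0.00468) and Lef1 (3.26, SE 0.47, FDR 0.00554), both factors of naive T cells, rose in CD4NIKΔ against CD4cre by edgeR's quasi-likelihood test. The egress genes had 1 of 5 called higher (median 1.10), a share set by a single gene beside 10.4% of all genes, and 4 of 5 lower (median −3.80, beside 18.5%) in these comparisons, S1pr1, the receptor that leads T cells out of tissue, being the higher one (2.15, SE 0.46, FDR 0.0189). In CD4IKK1Δ against CD4NIKΔ all 10 residency genes and 4 of the 5 egress genes had negative fold changes.

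The AP-1, BATF and IRF factors had 2 of 10 called higher in CD4NIKΔ against CD4cre (Batf at 1.45, FDR 0.0166, and Maf at 1.63, FDR 0.0224, by edgeR's quasi-likelihood test) and 6 of 10 lower in CD4IKK1Δ against CD4NIKΔ (medians 0.74 and −2.77), beside 10.4% and 18.5% of all genes. The exhaustion and NR4A factors had 2 of 7 called higher (Ikzf3 at 2.20, FDR 0.00429, and Ikzf2 at 2.65, FDR 0.0233) and 3 of 7 lower (medians 0.66 and −0.78), beside the same shares. In CD4IKK1Δ against CD4cre no gene of the related lists counted here was called, with medians from −1.89 for the AP-1, BATF and IRF factors to 0.05 for the other Krüppel-like factors beside 0.02 for all genes. The 16 Pan T markers themselves had 12 called higher in CD4NIKΔ against CD4cre (median 1.93, beside 10.4% of all genes) and 14 lower in CD4IKK1Δ against CD4NIKΔ (median −4.06, beside 18.5%), with a median of −2.04 in CD4IKK1Δ against CD4cre. In CD4NIKΔ against CD4cre the list medians had the sign of the Pan T markers under TMM scaling except for the E proteins, the Runx partners and the other Krüppel-like factors, at −0.34, −0.77 and −0.42.

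**Figure D5:**
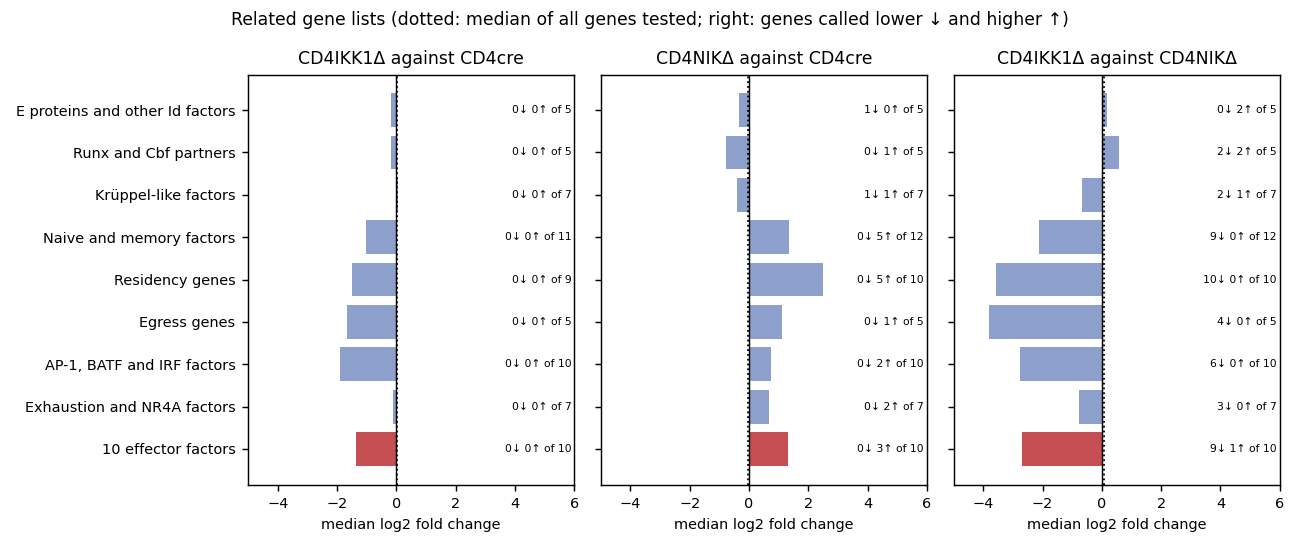
Median log2 fold change (TMM) of the 10 effector factors (red) and of 8 related gene lists (blue) in the 3 comparisons, with the median of all genes tested dotted and the numbers of genes called lower and higher at the right. The 10 factors have medians of −1.35, 1.32 and −2.71, and the bars of residency genes and egress genes point the same way in each comparison.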

How the data were processed

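Libraries of renal CD4+ T cells, each from a single mouse, were grouped by the labelled genotype (3 CD4cre, 5 CD4IKK1Δ, 3 CD4NIKΔ). According to the study's methods, cells were enriched with beads and purified by FACS sorting, RNA was amplified with a SMARTer kit, and reads were trimmed with Trimmomatic 0.36 (minimum length 36 nt, base quality 30). The authors deposited estimated counts from kallisto, 1 per gene symbol and library, neither normalized nor filtered. The methods name GRCm39 and the submitters' processing notes name mm10, and the kallisto version and annotation are not given in the sources used here. kallisto divides reads among transcripts, and 35.1% to 41.7% of a library's values were therefore fractional and were rounded. Of the 55 pairs of libraries, 0 held identical values.

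Genes were filtered and TMM-normalized with edgeR 4.0.16 (R 4.3.3) and tested with its robust quasi-likelihood F test and Benjamini-Hochberg adjustment over all genes tested, called at an FDR under 0.05 and more than 2-fold, the study's thresholds. The study used DESeq2, which served as an alternative here. Comparisons with CD4cre used their own libraries, and CD4IKK1Δ against CD4NIKΔ used all 11. Standard errors were taken from the F statistic. CPM used TMM factors over all 11 libraries, and distances between profiles used log2 CPM with a prior count of 2. The fit was tested on simulated counts, in which 200 genes were changed by 2 on the log2 scale. edgeR recovered 36.5% (CD4IKK1Δ against CD4cre), 47% (CD4NIKΔ against CD4cre) and 41% (CD4IKK1Δ against CD4NIKΔ) of them, with 1, 7 and 3 false calls. DESeq2 recovered 51.5%, 64.5% and 55%, with 49, 44 and 70 false calls. Coordinates and transcript lengths came from GENCODE vM39 (GRCm39), which held 33508 of the 35814 symbols (93.6%). Promoters came from RefSeq (GRCm38.p6).

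The members, lists and alternatives were chosen with earlier results of these data known. The genes named are the 10 factors, the 3 nearest profiles of each, and from each related list genes among the 2 with the smallest p in a comparison, while marker lists are given as sums and counts. Alternatives were DESeq2 1.42.0 on the libraries compared or all 11, RLE or upper-quartile factors or library size alone, 1 count in any or 10 counts in every library as the filter, other libraries in the fit, a fit that is not robust, no fold threshold, the replicate number as a block, counts thinned to the smallest library, Pan T and neuronal scores as covariates, scaling to Pan T counts, and each library left out. Leaving out both CD4IKK1Δ libraries of fewest T cell receptor counts was added after seeing the data. Columns of 0 samples were left unused. Reads and protein sequences were not analysed here. The counts and median of the list that holds Tbx21 and Rora are not reported here.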

Additional observations from a re-analysis of the deposited data

Results flagged for a closer look

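Among the 5 libraries labelled CD4IKK1Δ, the level of Hopx in replicate 3 stood apart from the others. Its log2 CPM was 6.62, and the gap to the next library made up 0.715 of the range of the group, above Dixon's 95% critical value of 0.71 for 5 samples. Replicate 3 was also the CD4IKK1Δ library with the most T cell receptor constant-region counts, at 62.2% of the CD4cre mean. The other 9 factors had no such library, and chance alone flags about 1 in 20 groups tested this way. Groups of 3 libraries were not tested.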

How the results depend on the processing

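In CD4IKK1Δ against CD4cre, 0 members were called by edgeR, 2 by DESeq2 on the compared libraries (Id3 and Nfil3), 3 by DESeq2 on all 11 libraries, 1 with scaling to Pan T counts and 0 in every fit that left out a library. In CD4NIKΔ against CD4cre the 3 calls became 5 with DESeq2 and 0 with the Pan T or the neuronal covariate, 4 with scaling to Pan T counts (all lower, and none of the 3), and from 3 to 6 when a library was left out, 6 of them without CD4cre replicate 1. In CD4IKK1Δ against CD4NIKΔ the 10 calls became 6 with 10 counts required in every library (7 members tested), 2 with the Pan T covariate, 4 with scaling to Pan T counts (all higher), 0 with the neuronal covariate, 9 without both CD4IKK1Δ libraries of fewest receptor counts, and from 8 to 10 when a library was left out. The other settings kept the number of calls within 1.5 times. The share of all genes called is not given for CD4NIKΔ against CD4cre without CD4cre replicate 1 or CD4NIKΔ replicate 1. Nor is it given for CD4IKK1Δ against CD4NIKΔ with 10 counts in every library or with libraries left out. The member counts of these fits are therefore no result about the factors.

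Over all genes, the 0 calls of CD4IKK1Δ against CD4cre became 553 and 705 with DESeq2, 48 and 159 with the other filters, 129 with all 11 libraries in the fit, 7 after thinning, from 0 to 23 with a library left out, 36 without both libraries of fewest receptor counts and 8840 with scaling to Pan T counts. The 2649 calls of CD4NIKΔ against CD4cre became 674 to 1001 without CD4cre replicate 2 or 3 or CD4NIKΔ replicate 2 or 3, 10360 with scaling to Pan T counts and 0 with either covariate. The 5512 calls of CD4IKK1Δ against CD4NIKΔ became 13689 with that scaling, 762 with the Pan T covariate and 0 with the neuronal covariate. The covariates move with the groups, so that content of T cell or neuronal transcript and genotype cannot be told apart.

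The log2 fold changes that turned direction did so under 3 settings. With scaling to Pan T counts they were, in CD4IKK1Δ against CD4cre, Id2 1.68, Id3 0.89, Hopx 1.80, Runx2 1.26, Klf6 0.035 and Bhlhe40 0.90. In CD4NIKΔ against CD4cre they were Id2 −0.62, Id3 −1.35, Hopx −0.011, Runx1 −1.25, Prdm1 −0.44, Klf6 −0.77, Bhlhe40 −0.018 and Nfil3 −1.37. In CD4IKK1Δ against CD4NIKΔ they were Id2 2.31, Id3 2.24, Hopx 1.81, Runx1 0.63, Runx2 1.22, Klf6 0.80, Bhlhe40 0.91 and Nfil3 1.27. With the Pan T covariate Runx1 (0.14) and Runx2 (0.34) turned in CD4IKK1Δ against CD4cre, Id3 (−2.62), Runx1 (−1.55), Prdm1 (−1.30), Zeb2 (0.70), Klf6 (−1.42), Bhlhe40 (−3.15) and Nfil3 (−0.38) in CD4NIKΔ against CD4cre, and Runx1 (1.25) in CD4IKK1Δ against CD4NIKΔ. With the neuronal covariate Id3 (−0.87), Runx1 (−0.20), Zeb2 (0.090) and Bhlhe40 (−0.16) turned in CD4NIKΔ against CD4cre. The cause was not tested.

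With the replicate number as a block, no member was called in CD4IKK1Δ against CD4cre. The 3 calls in CD4NIKΔ against CD4cre were kept, where 1185 of the 15209 genes were called. Bhlhe40 (FDR 0.0637) and Runx1 (FDR 0.0811) lost their calls in CD4IKK1Δ against CD4NIKΔ, for which the share of all genes called with the block is not given. Deviations of same-numbered libraries correlated between −0.089 and 0.0772, and those of differently numbered libraries between −0.0588 and 0.0906. No pairing by number was seen in this measure. It cannot exclude a shared day or batch, which the labels do not give.

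Members with few counts limit the precision: Runx1 and Prdm1 were at or under 3 counts in 1 and 2 libraries labelled CD4IKK1Δ.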
